A study of Danio rerio with 6 samples.

Results

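The genes described here encode the core of TGF-beta signaling: the ligands tgfb1a, tgfb1b, tgfb2 and tgfb3, the type I receptors tgfbr1a and tgfbr1b, the type II receptors tgfbr2a and tgfbr2b, and the receptor-activated Smads smad3a and smad3b. They were taken by symbol from the deposited gene expression table, and all 10 were found among its 24923 genes. The table comes from tail fins of zebrafish larvae (AB strain and the Tg(MPEG-GFP) macrophage reporter line; which line gave the RNA is not stated in the sources used here). From 2 days post-fertilization (dpf) larvae were kept in 8 μM sunitinib, a drug that blocks several receptor tyrosine kinases, or in vehicle alone. The medium of both groups held 0.1% DMSO. The fin was cut at 3 dpf, and RNA was taken at 6 hours post-amputation (hpa). Each group had 3 pools of more than 60 larvae. Both groups were therefore wounded, and uncut fins were not analysed here.

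TGF-beta ligands are secreted as latent dimers bound to their own propeptide and to latent TGF-beta binding proteins. Once freed, they bind a type II receptor kinase, which phosphorylates a type I receptor, which in turn phosphorylates Smad2 and Smad3 so that these enter the nucleus with Smad4. The pathway is known for driving matrix deposition and for restraining inflammation in wounds, and in the adult zebrafish fin its activin branch is needed for regeneration. The a and b genes are duplicates kept from the genome duplication of teleost fish.

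The libraries held 14813183 to 15294706 estimated reads with sunitinib and 13394060 to 14780202 with DMSO. DMSO replicate 1 stood apart. A chi-square comparison of gene counts, divided by its degrees of freedom, gave 35.1 to 60.8 for pairs with this library and 8.59 to 24.6 for pairs without it. Of 10 members, 5 had their highest value in that library (tgfb1a, tgfb1b, tgfb2, smad3a and smad3b), as did 25.9% of all tested genes. No epidermis or fin fold mesenchyme marker found in the table was at 0 in every library. This says little about the tissue, since 22128 to 22476 of the 24923 genes had a read in each library. Skeletal muscle, macrophage, neutrophil and endothelial markers had reads too, so each value is a sum over cell types. Skeletal muscle gave the largest sum of the marker lists. Its summed FPKM, a level scaled to gene length and library size, was 135239 to 188729 over 20 markers. The sums were 30595 to 44911 over 9 red blood cell markers, 9691 to 12798 over 16 epidermis markers and 2099 to 2960 over 18 fin fold mesenchyme markers. In such bulk tissue, fewer cells of a type and less RNA per cell cannot be told apart.

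No member passed the test for a difference between sunitinib and DMSO. The test was edgeR's quasi-likelihood test on all genes with enough counts, called at an adjusted p under 0.05, and 9 of 10 members had enough counts. In that test 0% of the 17309 tested genes were called, while 13.6% had an unadjusted p under 0.05. DESeq2 called 0.307% of the genes for which it gave an adjusted p, and no member was among those called. It gave no adjusted p for tgfb1b, tgfb2, tgfbr1a, tgfbr1b and tgfbr2a, so these could not be called. For tgfb1b the unadjusted p of DESeq2 was 0.0613. In edgeR, at an unadjusted p under 0.05, 2 members, tgfb1b and smad3b, were lower with sunitinib and none was higher. Of all tested genes 6.12% were lower and 7.51% higher. Of the tested members, 7 had a negative log2 fold change, against 50.5% of all tested genes, and the median was -0.29, against -0.0041 over all tested genes. With 1 library left out the members' median ran from -0.47 (sunitinib replicate 1 removed) to -0.20 (sunitinib replicate 2 removed). The normalized values of the groups did not overlap for 2 members, tgfb1b and tgfb3, both lower with sunitinib, against 10.8% of all tested genes lower and 9.15% higher without overlap. The plot of normalized CPM (counts scaled to library size) shows every member in every library.

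**Figure D1:**
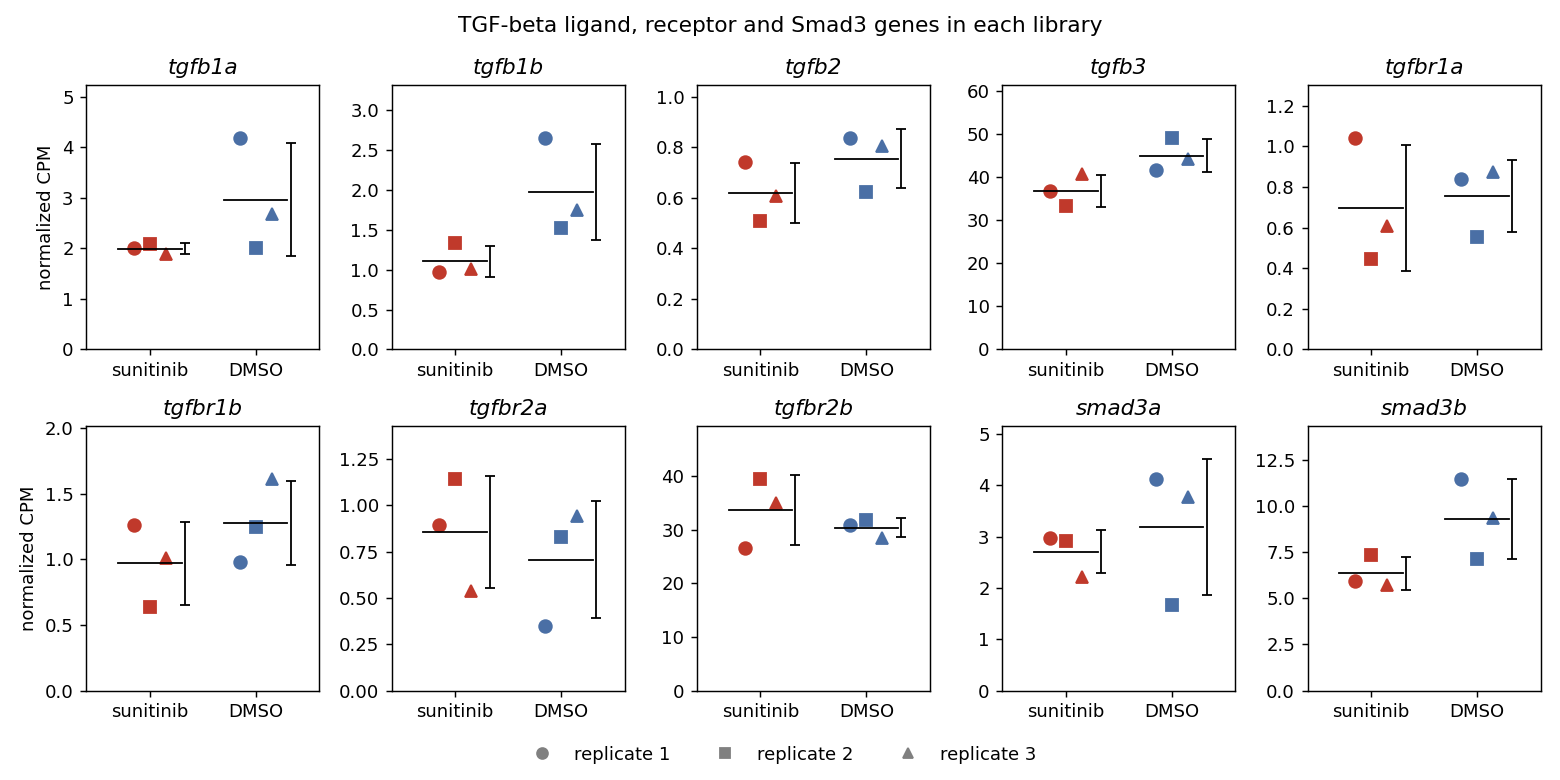
CPM normalized by TMM for each of the 10 genes, with 1 panel a gene and its own linear axis from 0. Points are libraries (3 sunitinib in red, 3 DMSO in blue), horizontal lines are group means, and bars are SD. The sunitinib and DMSO libraries do not overlap for tgfb1b (0.967 to 1.33 against 1.52 to 2.65) and tgfb3 (33.2 to 40.7 against 41.7 to 49.1), and overlap for the others.

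The 10 genes differed widely in level, and in most steps of the signal 1 gene of a family held most of the reads. Per length, as the authors' FPKM (fragments scaled to gene length and library size), tgfb3 was the highest, at 20.7 ± 1.88 with sunitinib and 26.3 ± 1.07 with DMSO (SD, n = 3 each). Next stood tgfbr2b, at 16.8 ± 4.54 with sunitinib and 15.7 ± 0.926 with DMSO. The ranges of these genes overlapped with sunitinib and were separate with DMSO. In both groups smad3b followed, with FPKM of 3.55 ± 0.778 with sunitinib and 5.45 ± 1.49 with DMSO, separate from its neighbors. Below it, tgfb1a and smad3a had FPKM of 1.5 ± 0.18 and 1.09 ± 0.196 with sunitinib, and of 2.35 ± 0.976 and 1.36 ± 0.605 with DMSO. The remaining 5 genes lay under an FPKM of 1 on average in both groups. With sunitinib each of them overlapped its neighbor in the order tgfb2, tgfbr1b, tgfb1b, tgfbr1a and tgfbr2a. With DMSO the order was tgfb1b, tgfb2, tgfbr1b, tgfbr1a and tgfbr2a, and there tgfbr1b and tgfbr1a were separate while the other neighbors overlapped. These 5 genes never reached 50 reads in a library, whereas tgfb3 and tgfbr2b had more than 300 in each.

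Among the ligands, tgfb3 (gene ID 369195) made up 88.7% ± 1.40 of the summed ligand FPKM with sunitinib and 86.7% ± 4.42 with DMSO (SD, n = 3 each). TGF-beta 3 is the ligand best known from embryonic epithelial fusion and from skin in mammals. Normalized CPM of tgfb3 was 36.7, 33.2 and 40.7 in the sunitinib replicates, against 41.7, 49.1 and 44.1 in the DMSO replicates. All 3 sunitinib libraries thus lay below all 3 DMSO libraries, though the closest differed only by 40.7 against 41.7. Before scaling, the reads overlapped, at 493 to 604 with sunitinib and 597 to 709 with DMSO. The log2 fold change was -0.29 (standard error, SE, 0.14, 95% interval -0.58 to 0.0088, adjusted p = 0.378, edgeR). Leaving out 1 library at a time moved it between -0.36 and -0.21.

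Both tgfb1 genes had lower means with sunitinib, from far fewer reads. TGF-beta 1 is the main ligand of platelets, immune cells and wounds in mammals. tgfb1b (gene ID 563884) had 13, 21 and 15 reads in the sunitinib replicates, against 38, 22 and 26 in the DMSO replicates. As normalized CPM that was 0.967, 1.33 and 1.01 with sunitinib, against 2.65, 1.52 and 1.75 with DMSO. The groups did not overlap, but the counting error alone is wide, since 13 reads have a 95% Poisson interval of 6.9 to 22.2 and 38 reads one of 26.9 to 52.2. Its log2 fold change of -0.83, a fold of 0.564, was the largest in size among the tested members (SE 0.32, 95% interval -1.51 to -0.14, unadjusted p = 0.0217, adjusted p = 0.318, edgeR). Without DMSO replicate 1, where it was highest, the value was -0.56. This fold rests on a mean CPM of 1.1 ± 0.20 with sunitinib and 1.97 ± 0.599 with DMSO (SD, n = 3 each).

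tgfb1a (gene ID 359834) stood at 2.01, 2.09 and 1.89 normalized CPM in the sunitinib replicates, close to each other, against 4.19, 2.01 and 2.69 in the DMSO replicates. DMSO replicate 2 lay inside the range of the sunitinib libraries, so the groups overlapped. The log2 fold change was -0.57 (SE 0.29, 95% interval -1.19 to 0.056, adjusted p = 0.399, edgeR). It depended on DMSO replicate 1, without which it was -0.23. In that library the summed FPKM of 20 macrophage markers was 120.9 and that of 8 neutrophil markers was 1312, the highest of the 6 libraries in each case. That library was also the highest for the sums of endothelial, fin fold mesenchyme and neural markers. It was the lowest for skeletal muscle markers, at 135239 against 161798 to 188729 in the other libraries. These rankings are stated for FPKM, which is not scaled by TMM. Under TMM scaling DMSO replicate 1 was lowered and was no longer the highest for macrophage and endothelial markers. Over the groups the macrophage sum was 104.1 to 110.8 with sunitinib and 106.3 to 120.9 with DMSO. The neutrophil sum was 807.3 to 1037 with sunitinib and 966.1 to 1312 with DMSO. None of these immune markers was at 0 in every library. Their part in the tgfb1 values was not tested.

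tgfb2 (gene ID 369194), a ligand of heart and neural crest development in mammals, was the only member with too few counts to be tested. It was read 10, 8 and 9 times in the sunitinib replicates, against 12, 9 and 12 times in the DMSO replicates. These counts cannot show a moderate difference at this depth, since 9 reads have a 95% Poisson interval of 4.1 to 17.1. With no filter on low counts its log2 fold change was -0.29 (SE 0.43, adjusted p = 0.811, edgeR). Summed over the 4 ligands, FPKM was 21.5, 23.2 and 25.2 in the sunitinib replicates, against 31.1, 30.4 and 29.8 in the DMSO replicates. The sums did not overlap and were mostly tgfb3, so they repeat what tgfb3 shows.

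**Figure D2:**
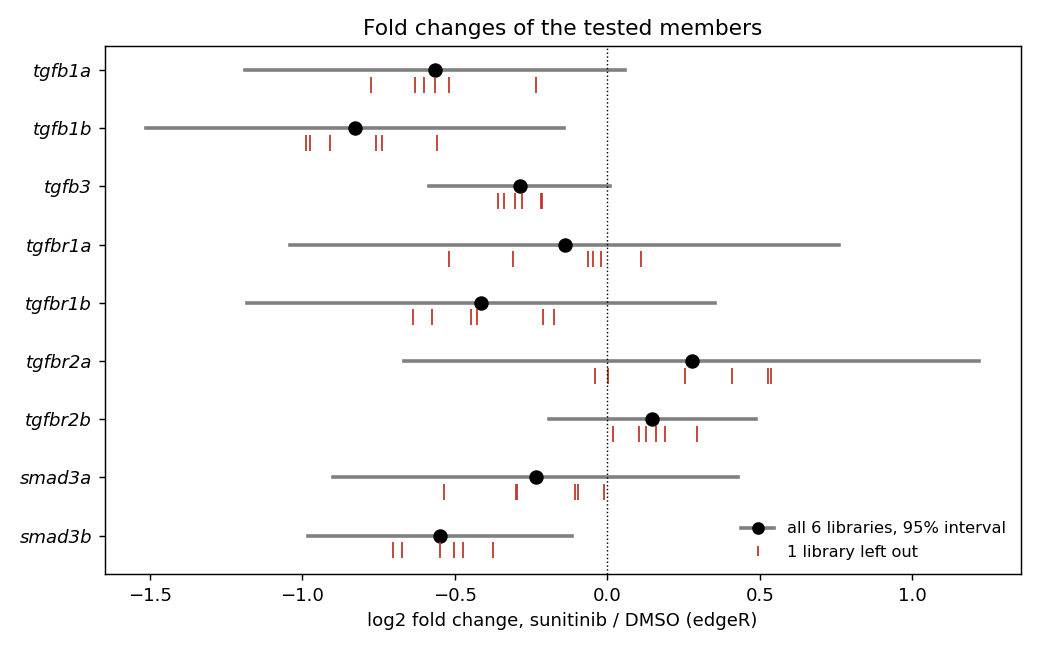
Log2 fold change of sunitinib over DMSO for the 9 tested members (edgeR). Black points with gray bars are the estimates from all 6 libraries with 95% intervals, and red ticks are the estimates with 1 library left out. The intervals of tgfb1b (-1.51 to -0.14) and smad3b (-0.98 to -0.12) lie below 0 before adjustment, and the ticks of tgfbr1a and tgfbr2a fall on both sides of 0.

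The receptors showed no shared direction. The type II receptor gene tgfbr2b (gene ID 30739), whose kinase starts the signal, held 98.5% ± 0.528 of the summed type II receptor FPKM with sunitinib and 98.6% ± 0.647 with DMSO (SD, n = 3 each). Its normalized CPM was 26.6, 39.5 and 34.9 in the sunitinib replicates, against 30.9, 31.9 and 28.5 in the DMSO replicates. The sunitinib libraries spanned a wider range and enclosed all DMSO libraries. The log2 fold change of 0.15 (SE 0.16, adjusted p = 0.679, edgeR) had a 95% interval of -0.19 to 0.49. It rested on single libraries, at 0.019 without sunitinib replicate 2 and 0.30 without sunitinib replicate 1. Its duplicate tgfbr2a (gene ID 100334928) was read 12, 18 and 8 times with sunitinib, against 5, 12 and 14 times with DMSO. Its log2 fold change of 0.28 (SE 0.44, adjusted p = 0.791, edgeR) became -0.042 without DMSO replicate 1 and 0.0022 without sunitinib replicate 2.

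The type I receptors, which phosphorylate Smad3, had few reads in both groups. tgfbr1b (gene ID 792928) was read 17, 10 and 15 times with sunitinib, against 14, 18 and 24 times with DMSO. Its log2 fold change was -0.41 (SE 0.36, 95% interval -1.18 to 0.35, adjusted p = 0.602, edgeR). It came to -0.17 without sunitinib replicate 2, -0.21 without DMSO replicate 3 and -0.64 without sunitinib replicate 1. tgfbr1a (gene ID 560578) was read 14, 7 and 9 times with sunitinib, against 12, 8 and 13 times with DMSO. For tgfbr1a the log2 fold change of -0.14 (SE 0.42, adjusted p = 0.896, edgeR) turned to 0.11 without sunitinib replicate 2. The groups overlapped for both genes, and their intervals span changes of more than 1 on the log2 scale. The summed type I receptor FPKM was 0.913 ± 0.260 with sunitinib and 1.2 ± 0.24 with DMSO, far under the summed type II receptor FPKM of 17.0 ± 4.59 with sunitinib and 15.9 ± 0.837 with DMSO (SD, n = 3 each).

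Of the Smad3 genes, which encode the transcription factor that carries the signal into the nucleus, smad3b was the better covered. smad3b (gene ID 326283) had a normalized CPM of 5.95, 7.36 and 5.72 in the sunitinib replicates, against 11.5, 7.13 and 9.34 in the DMSO replicates. Sunitinib replicate 2 lay above DMSO replicate 2, so the groups overlapped by 1 library each. The log2 fold change was -0.55, a fold of 0.683 (SE 0.20, 95% interval -0.98 to -0.12, unadjusted p = 0.0168, adjusted p = 0.311, edgeR). This was the smallest p among the members. With 1 library left out it ran from -0.70 (DMSO replicate 2 removed) to -0.37 (DMSO replicate 1 removed), and DESeq2 gave -0.54 (SE 0.24, adjusted p = 0.401).

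smad3a (gene ID 58092) stood at 2.98, 2.92 and 2.22 normalized CPM in the sunitinib replicates, against 4.12, 1.66 and 3.76 in the DMSO replicates. The DMSO libraries spread around all the sunitinib libraries. Its log2 fold change was -0.24 (SE 0.31, 95% interval -0.90 to 0.43, adjusted p = 0.744, edgeR). It was -0.010 without DMSO replicate 1, -0.096 without DMSO replicate 3, -0.11 without sunitinib replicate 3 and -0.54 without DMSO replicate 2. Among the DMSO libraries smad3a and smad3b had the same order, with DMSO replicate 2 lowest and DMSO replicate 1 highest.

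To ask whether sunitinib shifted the balance between duplicates, the log2 ratio of their FPKM was taken within each library. Scaling between libraries has no part in it, but the ratio does not take out a trend with gene length. tgfb1b and tgfb1a, for instance, had effective lengths of 2228 and 1302 bases. The part of such a trend in the ratios was not tested. tgfb1b stood at 0.320 times tgfb1a with sunitinib and 0.396 times with DMSO, as means on the log scale, a difference in log2 ratio of -0.31 (exact permutation test, 2-sided, p = 0.20). smad3b stood at 3.24 times smad3a with sunitinib and 4.27 times with DMSO, a difference in log2 ratio of -0.40 (exact permutation p = 0.30). tgfbr1b stood at 1.64 times tgfbr1a with sunitinib and 1.96 times with DMSO, a difference of -0.26 (exact permutation p = 0.50). tgfbr2b stood at 68.2 times tgfbr2a with sunitinib and 79.4 times with DMSO, a difference of -0.22 (exact permutation p = 0.60). The groups overlapped in all 4 ratios. With 3 libraries a group the smallest p possible is 0.10, and adjusted over the 4 pairs each p was 0.60. The order of the duplicates was the same in all 6 libraries for each pair, as the plot of duplicate ratios shows.

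**Figure D3:**
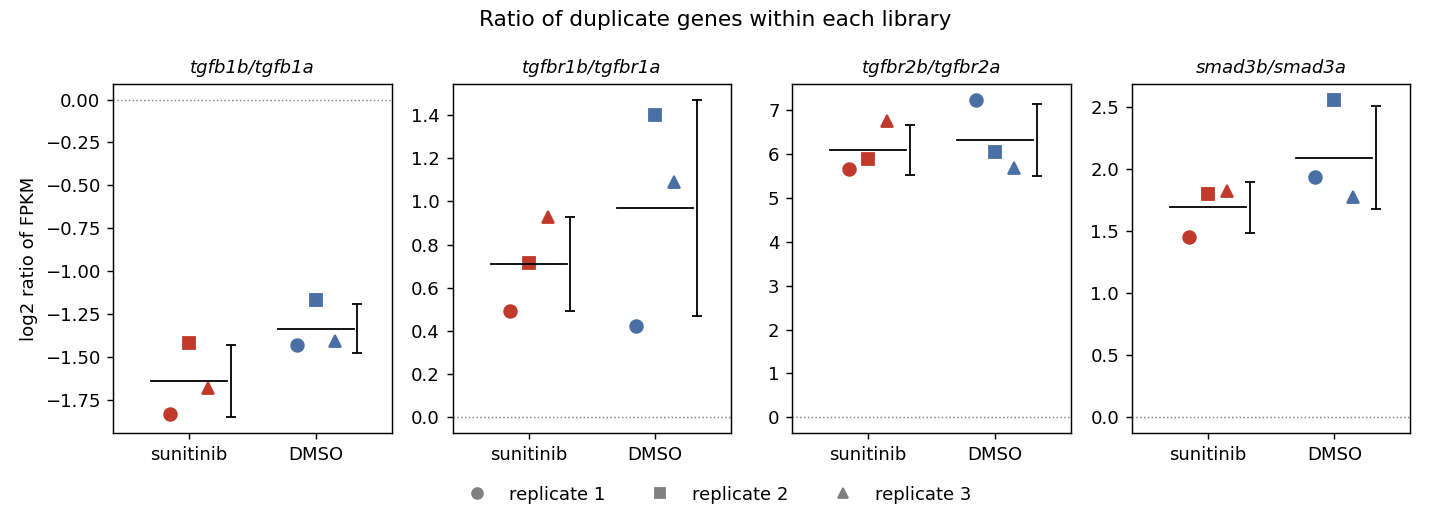
Log2 ratio of FPKM between duplicate genes within each library, with 1 panel a pair and its own axis. Points are libraries (sunitinib in red, DMSO in blue), lines are means, bars are SD and the dotted line marks equal levels. tgfb1b lies below tgfb1a, and tgfbr1b, tgfbr2b and smad3b lie above their duplicates, in all 6 libraries.

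Around the core, genes that hold or free the ligands had a log2 fold change below 0 in 14 of 18 tested cases, against 50.5% of all tested genes, and none passed the test. Their median was -0.19. An unadjusted p under 0.05 was found for 4 of them, all lower with sunitinib, against 6.12% of all tested genes lower. They were the membrane metalloproteinase genes mmp14a and mmp14b and the thrombospondin genes thbs1a and thbs1b, whose products can release latent TGF-beta in mammals. mmp14b was at 33.9, 33.9 and 34.0 normalized CPM in the sunitinib replicates, against 42.5, 41.3 and 47.1 in the DMSO replicates. thbs1b was at 106.6, 100.1 and 105.9 normalized CPM with sunitinib, against 131.9, 125.0 and 139.5 with DMSO. Their log2 fold changes were -0.36 and -0.34 (SE 0.13 each, adjusted p = 0.307 and 0.318, edgeR), and neither group of 3 overlapped the other. Sunitinib lay below DMSO without overlap for 5 genes of the list, against 10.8% of all tested genes. When the trend of fold change on gene length was taken out, 0 of 18 had an unadjusted p under 0.05 and the median was -0.082. In that fit 5.74% of all tested genes were lower and 5.7% higher. Over all tested genes the log2 fold change and the effective length had a Spearman correlation of -0.40, a description across genes and not across samples.

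The co-receptor gene tgfbr3, which encodes betaglycan and presents TGF-beta 2 to the receptors, was read 5, 5 and 8 times with sunitinib, against 11, 10 and 17 times with DMSO. Its log2 fold change was -1.07 (SE 0.42, adjusted p = 0.324, edgeR). Endoglin, the co-receptor of endothelial cells, had 2 to 7 reads with sunitinib and 6 to 10 with DMSO and was not tested. Neither co-receptor level can be read closely at these counts.

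Of 7 other Smad genes tested, none had an unadjusted p under 0.05. The log2 fold change was below 0 for 6 of them, against 50.5% of all tested genes, and its median was -0.20. smad2, whose product is the close partner of Smad3, stood at -0.058 on that scale (SE 0.14, 95% interval -0.36 to 0.25, adjusted p = 0.870, edgeR), and normalized CPM of 18.8 ± 2.22 with sunitinib and 19.6 ± 0.582 with DMSO (SD, n = 3 each). It was named after the values were seen, as the other Smad of this branch. smad4a, a gene of the shared partner Smad, stood at 6.82 ± 0.634 normalized CPM with sunitinib and 8.32 ± 0.949 with DMSO (SD, n = 3 each). Its log2 fold change was -0.28 (SE 0.17, adjusted p = 0.461, edgeR). Sunitinib lay below DMSO without overlap for this gene alone of the 7, against 10.8% of all tested genes. smad4b, the other gene of this partner, also named after the values were seen, had -0.11 (SE 0.31, adjusted p = 0.892, edgeR). Its groups overlapped, at 1.44 ± 0.342 normalized CPM with sunitinib and 1.56 ± 0.345 with DMSO.

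Inhibitors and feedback genes had a median log2 fold change of -0.13 over 16 tested genes. At an unadjusted p under 0.05 there were 3 lower with sunitinib and 0 higher, against 6.12% and 7.51% of all tested genes. The groups did not overlap, with sunitinib lower, for 5 of the 16, against 10.8% of all tested genes. With sunitinib higher this held for 1, against 9.15%. smad7 encodes the inhibitory Smad that TGF-beta itself induces. It was at 17.4, 18.5 and 17.6 normalized CPM in the sunitinib replicates, against 26.6, 19.0 and 21.6 in the DMSO replicates, without overlap. DMSO replicate 1 was the highest, and the closest libraries differed only by 18.5 against 19.0. The log2 fold change of smad7 was -0.33 (SE 0.15, adjusted p = 0.364, edgeR). skila, a Ski-like repressor of Smad-bound genes that is likewise induced by the pathway, had -0.40 (SE 0.17, adjusted p = 0.345), and dcn, which encodes the TGF-beta-binding proteoglycan decorin, had -0.42 (SE 0.14, adjusted p = 0.305). The ubiquitin ligase genes smurf1 and smurf2, chosen after their values were seen, had log2 fold changes of -0.012 and 0.048.

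Of the tested genes that TGF-beta is known to induce in other tissues, 26 had a log2 fold change below 0 and 12 above. Of all tested genes 50.5% were below 0. None of these target genes passed the adjusted test. Their median was -0.21 over 38 tested genes, of which 8 were lower with sunitinib and 1 higher at an unadjusted p under 0.05, against 6.12% and 7.51% of all tested genes. The groups did not overlap, with sunitinib lower, for 13 of the 38, against 10.8% of all tested genes, and with sunitinib higher for 1, against 9.15%. Among the lower ones were loxl2b, a collagen cross-linking enzyme, at 34.7 ± 1.85 normalized CPM with sunitinib and 44.8 ± 3.24 with DMSO (SD, n = 3 each), and snai1a, a repressor of epithelial genes, at 7.60 ± 1.04 with sunitinib and 10.4 ± 1.84 with DMSO. Their log2 fold changes were -0.37 and -0.46 (SE 0.13 and 0.18, adjusted p = 0.307 and 0.329, edgeR). tgfbi, a matrix protein named for its induction by TGF-beta, had the smallest p of the list, at a log2 fold change of -0.43. The higher gene was cdkn1a, a cell cycle inhibitor that p53 also induces, at 2.14 ± 0.663 normalized CPM with sunitinib and 1.22 ± 0.217 with DMSO (log2 fold change 0.82, SE 0.31, adjusted p = 0.318, edgeR). With the length trend taken out, 6 of the target genes were lower and 2 higher at an unadjusted p under 0.05, with a median of -0.13. Of all tested genes in that fit 5.74% were lower and 5.7% higher.

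Without DMSO replicate 1, an unadjusted p under 0.05 with sunitinib lower was found for 1 member, tgfb3, against 5.65% of all genes tested in that fit. The same held for 5 of 18 latency genes, 2 of 16 inhibitors and 9 of 38 target genes. Higher in that fit were 2 target genes and 0 members, latency genes or inhibitors, against 6.91% of all genes tested. With the length trend taken out, 4 members (tgfb1a, tgfb1b, tgfb3 and smad3b) were lower at an unadjusted p under 0.05, against 5.74% of all tested genes in that fit, and the median of the tested members was -0.34, against -0.00031 over all tested genes. In FPKM, the sums of some marker lists differed between the groups. The summed FPKM of 20 endothelial markers was 254.6 to 266.8 with sunitinib and 288.3 to 304.2 with DMSO, without overlap. That of 13 notochord markers was 802.7 to 928.0 with sunitinib and 944.4 to 1077 with DMSO, also without overlap. FPKM is scaled to total reads and not by TMM, which raised sunitinib replicate 1 the most. The separation of these sums is therefore stated for FPKM only. It was lost under TMM scaling, which raised sunitinib replicate 1 and lowered DMSO replicate 1. The sum over 18 fin fold mesenchyme markers overlapped, at 2099 to 2471 with sunitinib and 2155 to 2960 with DMSO. At an unadjusted p under 0.05, with sunitinib lower, stood 5 of 20 tested endothelial, 3 of 12 notochord and 5 of 18 fin fold markers, and none was higher. Of 7 tested neutrophil markers 2 were lower and 0 higher, whereas 3 of 15 tested epidermis markers and 3 of 9 red blood cell markers were higher and 0 lower. Of 17 tested macrophage markers 1 was lower and 1 higher. Of 20 skeletal muscle markers 2 were lower and 0 higher, and of 12 neural markers 1 was lower and 0 higher. Over all tested genes 6.12% were lower and 7.51% higher. No marker of these lists was at 0 in every library. The part of such cells in the values of the ligands, Smads and matrix targets was not tested.

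**Figure D4:**
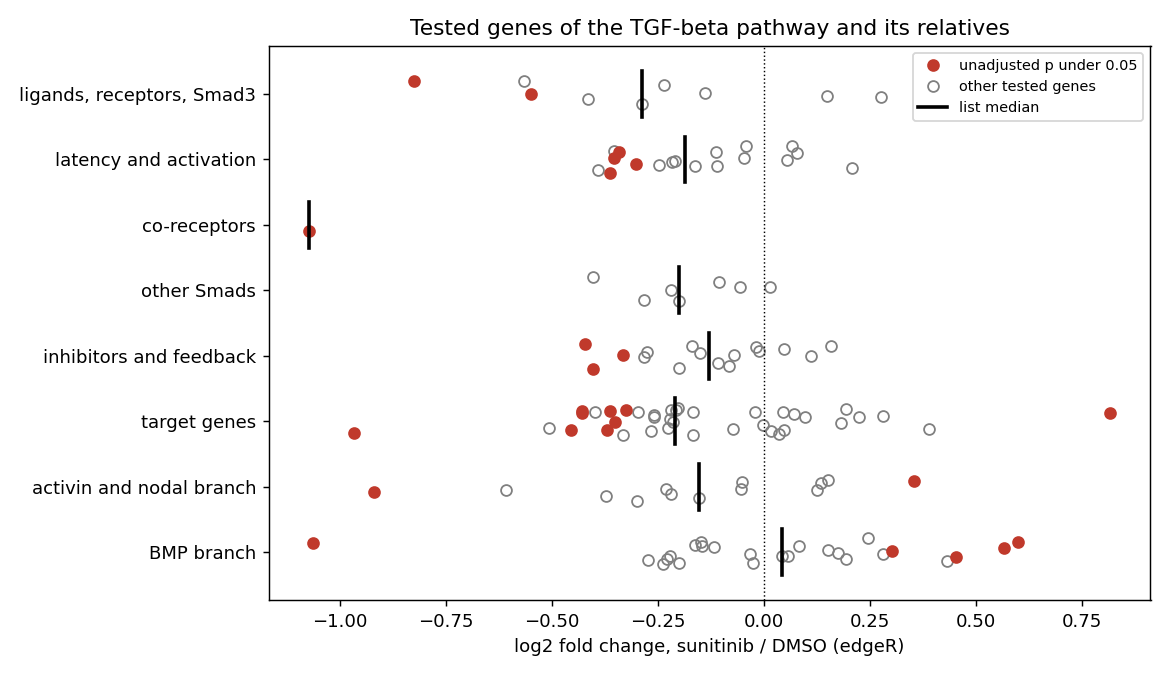
Log2 fold change of sunitinib over DMSO (edgeR) for each tested gene of 8 lists, with 1 row a list. Filled red points have an unadjusted p under 0.05, open gray points do not, and black bars are list medians. The median lies at -0.29 for the ligands, receptors and Smad3, at -0.21 for target genes and at 0.041 for the BMP branch (-0.00057 without DMSO replicate 1), and no point passed the adjusted test.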

How the data were processed

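RNA of 3 sunitinib and 3 DMSO pools was compared. The deposited table gives estimated counts, FPKM, TPM and a normalized read count signal per gene, which the authors made with build GRCz11, and group means of each. Not given in the sources used here were the aligner, the counter and the annotation release. Estimated counts were rounded to whole numbers, and FPKM was used for levels between genes. TPM, the normalized signal and the group means as deposited were not used.

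Genes with low counts were removed by edgeR's filterByExpr, counts were scaled by TMM, and groups were compared with edgeR 4.0.16 (quasi-likelihood test, R 4.3.3), with Benjamini-Hochberg adjustment over 17309 genes. DESeq2 1.42.0 and limma 3.58.1 (on log2 FPKM with a pseudocount of 1 or 0.1) served as alternatives. On simulated data for this comparison, edgeR recovered 69% of genes changed 2-fold and 93% of those changed 4-fold, with 17079 genes tested. It also called 12 unchanged genes. The simulated counts held no outlying library and no length trend, and the changed genes were drawn from all levels. These shares therefore do not tell how often a change would be found in members with few reads. Duplicates were compared by exact permutation tests. Intervals on single counts cover counting error only, and p-values measure only the spread between these pools. Reads of near-identical duplicates could be split between them by the counting.

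Members and gene lists were chosen with earlier results of these data known. Pathway genes were named by the smallest p within a list, and exceptions are marked.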

Additional observations from a re-analysis of the deposited data

How the results depend on the processing

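No member passed the adjusted test under any of 134 combinations of member and alternative (adjusted p 0.178 to 0.999, where one was given). The count of genes called, 0 in edgeR, was 12 with no filter on low counts, 43 with DESeq2 and 2 with limma on log2(FPKM + 1) without a filter, and 0 to 3 with 1 library left out (3 without DMSO replicate 1). The cause of these differences was not tested. Without 1 library, the log2 fold change of tgfbr1a ran from -0.52 to 0.11, that of tgfbr2a from -0.042 to 0.54, and the difference in log2 ratio of tgfbr2b to tgfbr2a from -0.55 to 0.24; the sign turned without sunitinib replicate 2 for tgfbr1a and without DMSO replicate 1 for the others. Members lower at an unadjusted p under 0.05 numbered 0 without sunitinib replicate 1 or 3, 1 without DMSO replicate 1 or with DESeq2, and 4 without DMSO replicate 2 or with the length trend taken out. Of all tested genes, 5.65% were lower without DMSO replicate 1 and 5.74% with the length trend taken out. This share is not given for the other fits, so their counts cannot be set against it. With the replicate number as a block, 0 genes and 0 members were called. Deviations of same-numbered libraries correlated at -0.17, -0.10 and 0.02, so the numbers were not taken as pairs. Depth limits tgfb1b, tgfb2, tgfbr1a, tgfbr1b and tgfbr2a, each under 50 reads in every library.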

Other observations

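The BMP branch, whose ligands use other Smads than TGF-beta, had a median log2 fold change of 0.041 over 25 tested genes. That median had no stable sign, at -0.00057 without DMSO replicate 1, -0.0013 without sunitinib replicate 3, 0.00048 with the length trend taken out and -0.022 with limma on log2(FPKM + 0.1). At an unadjusted p under 0.05, 4 were higher with sunitinib and 1 was lower, against 7.51% and 6.12% of all tested genes, and none passed the adjusted test. id2a, a BMP-induced inhibitor of helix-loop-helix factors, stood at 59.5 ± 8.22 normalized CPM with sunitinib and 40.2 ± 9.69 with DMSO, and id2b at 9.76 ± 1.29 with sunitinib and 6.43 ± 1.16 with DMSO (SD, n = 3 each). Their log2 fold changes were 0.57 and 0.60 (SE 0.18 and 0.19, adjusted p = 0.303 and 0.293, edgeR). DMSO replicate 1 lowered both DMSO means. It stood at 29.1 for id2a, against 47.2 and 44.3 in DMSO replicates 2 and 3, and at 5.10 for id2b, against 6.99 and 7.19. bmpr2b, a type II BMP receptor gene, stood at 0.560 ± 0.164 with sunitinib and 1.19 ± 0.190 with DMSO, at a log2 fold change of -1.06 (SE 0.36, adjusted p = 0.307, edgeR). It was read only 5, 10 and 10 times with sunitinib, against 14, 18 and 20 times with DMSO.

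In the activin and nodal branch, 1 of 13 tested genes (7.69%) was lower and 1 higher at an unadjusted p under 0.05, which is near the 6.12% lower and 7.51% higher of all tested genes. acvr1bb, a type I activin receptor gene, had a log2 fold change of -0.92 (SE 0.34, adjusted p = 0.314, edgeR). It rests on few reads, at 14, 8 and 15 with sunitinib against 26, 19 and 25 with DMSO. fsta, which encodes the activin-binding protein follistatin, had a log2 fold change of 0.35 (SE 0.15, adjusted p = 0.340, edgeR). Without DMSO replicate 1, 0 genes of this branch had an unadjusted p under 0.05, against 5.65% of all genes tested in that fit lower and 6.91% higher.

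The pattern of tgfb1b over the 6 libraries was most like those of cdk15, dnajc21, slc15a2 and micall1a and of 1 gene without a descriptive name, with root mean square differences of centered log2 CPM of 0.0803 to 0.106. Among members, smad3b (0.141) and tgfb1a (0.186) came nearest and tgfbr2a (0.795) was farthest. cdk15, dnajc21, slc15a2, micall1a and the unnamed gene were, like tgfb1b, smad3b and tgfb1a, highest in DMSO replicate 1, the library that stood apart. All genes compared here share the 6 libraries, so the likeness is a description.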
